A study of Mus musculus with 30 samples.

Results

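The 6 metabotropic glutamate receptor genes Grm2, Grm3, Grm4, Grm5, Grm7 and Grm8 were followed in the hippocampus of mice kept in social isolation (SI) and of group-housed (GH) mice. They were taken by symbol from the deposited count table and make up 6 of its 17477 genes. All 6 passed the filter on low counts in females and in males, with between 91 counts (Grm8) and 21833 counts (Grm5) in a mouse. The question put to them was whether SI and GH mice differ in the RNA level of these receptors, in each sex.

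Frozen hippocampus was taken from adult mice of the strain C57 BL/6J, and poly(A)-selected RNA was sequenced as 1 library per mouse. SI mice lived 1 to a cage from weaning onwards, and GH mice, the controls, shared cages. The female groups were 8 SI and 7 GH mice (animals 41 to 79), and the male groups were 7 SI and 8 GH mice (animals 1 to 39). Neither the labels nor the study's methods name a transgene, a drug or another treatment, and all groups were of the same strain. Which GH mice shared a cage is not given in the sources used here, so p-values rest on the spread between mice taken as separate animals.

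Each library held between 18809307 and 100844898 counts. SI males 25, 33 and 39 stood apart. In a principal component analysis of the males, the first component (59.1% of the variance) placed these 3 between -99.5 and -61.4 and the other 12 mice between -1.34 and 35.2. Their libraries also held relatively less of the longer transcripts than those of the other males. A slope on log2 transcript length was taken of each gene's log2 CPM minus its mean over the mice of that sex. It was -0.437 to -0.332 in these 3, -0.0411 to 0.224 in the 4 other SI males and 0.00416 to 0.218 in GH males. Females, set against their own mean, had -0.172 to 0.127 under SI and -0.154 to 0.0982 under GH. In females the first component held 24.3% of the variance, and SI female 53 (-33.7) and GH female 78 (-38.3) were lowest on it. Values without these mice are given beside many of the results they touch, but not beside the TPM levels and shares. Markers of dentate granule cells, CA1 and CA3, with 4 genes each, passed the filter on low counts in both sexes.

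Metabotropic glutamate receptors are G protein-coupled receptors that answer to glutamate over a slower time course than the ion channel receptors. Group I receptors, among them mGluR5 (Grm5), couple to Gq, phospholipase C and calcium release and sit mostly at the postsynaptic side, where Homer and Shank proteins hold them. Group II (mGluR2 and mGluR3, from Grm2 and Grm3) and group III (mGluR4, mGluR7 and mGluR8, from Grm4, Grm7 and Grm8) couple to Gi/o, lower cyclic AMP and dampen transmitter release at many terminals. In the hippocampus mGluR5 is known for its part in long-term depression, mGluR2 for its presence on mossy fibre terminals, mGluR3 for its presence in astrocytes as well as neurons, and mGluR7 for its place in the active zone.

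The genes lie on 5 chromosomes of NCBIM37 (GENCODE vM1 annotation), a build whose coordinates cannot be carried over to GRCm39, which the submitters' processing notes name. Grm2 (ENSMUSG00000023192) is at chr9:106546868-106558440 on the minus strand, Grm3 (ENSMUSG00000003974) at chr5:9485236-9725352 on the minus strand, and Grm4 (ENSMUSG00000063239) at chr17:27559332-27650286 on the minus strand. Grm5 (ENSMUSG00000049583) is at chr7:94750952-95283417 on the plus strand, Grm7 (ENSMUSG00000056755) at chr6:110595575-111517224 on the plus strand, and Grm8 (ENSMUSG00000024211) at chr6:27225121-28085178 on the minus strand. All are protein-coding. Their spans differ widely, from 11573 bases for Grm2 to 921650 for Grm7, while the longest coding transcripts run from 3320 bases (Grm2) to 6896 (Grm5). Counts were taken over whole genes, so a value does not say which exons or isoforms it comes from.

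Of the 6 genes, Grm3 and Grm7 had the smallest p-values in females and Grm3 in males, so the promoters of these 2 genes are shown. The sequences are from RefSeq on GRCm38.p6, each 300 bases long around an annotated start, and capitals mark the GC box GGGCGG, searched on both strands. The Grm3 promoter is chr5:9725303-9725602 on the minus strand, and that of Grm7 is the first of 2 overlapping entries, chr6:110645262-110645561 on the plus strand.
Grm3: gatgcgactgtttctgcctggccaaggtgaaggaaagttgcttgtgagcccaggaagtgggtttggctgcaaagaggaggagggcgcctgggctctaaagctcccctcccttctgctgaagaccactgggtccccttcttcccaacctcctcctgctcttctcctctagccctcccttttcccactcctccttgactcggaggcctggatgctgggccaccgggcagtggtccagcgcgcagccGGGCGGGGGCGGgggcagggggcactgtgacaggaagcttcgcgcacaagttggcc
Grm7: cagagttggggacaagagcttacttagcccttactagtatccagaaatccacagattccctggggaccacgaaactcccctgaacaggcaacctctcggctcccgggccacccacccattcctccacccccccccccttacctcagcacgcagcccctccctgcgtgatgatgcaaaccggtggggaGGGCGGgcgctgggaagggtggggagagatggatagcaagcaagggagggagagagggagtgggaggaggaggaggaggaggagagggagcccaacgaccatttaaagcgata
Grm3 held 2 GC boxes side by side and Grm7 held 1, where 35.7% of all 32851 promoters of this length held at least 1. Neither window held the letters TGACG (the core of a CRE, in 20.8% of all promoters) or CACGTG (an E-box, in 7.15%), on either strand. GC content was 63.7% for Grm3 and 61.0% for Grm7, against a median of 52.7% over all promoters. The counts carry no measurement at these promoters, and the letters describe the windows only. Promoter entries were matched for 4 of the 6 genes, Grm2, Grm3, Grm7 and Grm8.

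Levels were first compared between the genes per transcript length, as TPM (a level scaled by transcript length and library) computed from the counts and the longest coding transcript of each gene. Over the 30 mice the median level was 59.7 TPM for Grm5, 40.4 for Grm2, 31.0 for Grm3, 18 for Grm7, 9.42 for Grm4 and 4.27 for Grm8. The order of the group medians was the same in all 4 groups. In GH males the ranges of neighbours in this order were separate, except that Grm5 (48.7 to 90.6 TPM) overlapped Grm2 (37.6 to 61.1 TPM), although Grm5 was above Grm2 in 8 of 8 mice. In GH females Grm2 and Grm3 also overlapped, with Grm2 the higher in 6 of 7 mice. The median of their ratio within each mouse was 1.13, and their order was thus not the same in every mouse. Grm7 and Grm4 overlapped there too, but Grm7 was the higher in 7 of 7 mice. In SI females Grm5 overlapped Grm2 and Grm2 overlapped Grm3, while each gene was above the next in 8 of 8 mice. SI males were the most variable group, and all 5 pairs of neighbours overlapped there. The lowest TPM of each gene in SI males was that of SI male 25 or 33, whose libraries stood apart.

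**Figure D1:**
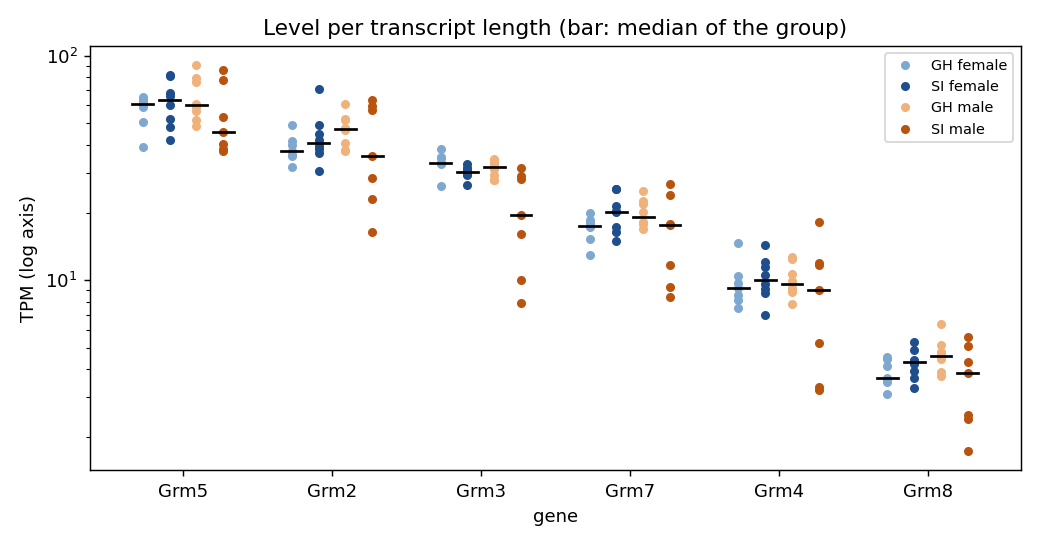
Level of each receptor gene per transcript length, in TPM on a log axis, with 1 point per mouse and a bar at each group's median. Grm5 is the highest and Grm8 the lowest gene in each group, and SI males spread most widely.

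The share of each receptor class in the summed TPM of the 6 genes was close between the groups of mice by its median. Grm5 alone, the group I gene here, held a median of 36.1% in SI females, 36.7% in GH females, 37.5% in SI males and 36.5% in GH males. Grm2 and Grm3 together held 43.7%, 44.3%, 43.0% and 43.3% in the same order, and Grm4, Grm7 and Grm8 together held 20.2%, 18.7%, 19.4% and 19.2%. In SI males the group I share reached from 24.6% (SI male 38) to 54.2% (SI male 25), against 31.4% to 39.6% in GH males. The spread between mice was thus wider among SI males. Its upper end came from a library that stood apart, SI male 25, while SI male 38 at its lower end was not among those libraries. Whether housing had a part in this spread was not tested.

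SI and GH mice were then compared gene by gene with edgeR's quasi-likelihood test within each sex, with svaseq surrogate variables (estimated hidden factors, 3 in females and 2 in males) in the model and Benjamini-Hochberg adjustment over all genes tested. In females 0 of the 6 receptor genes passed an adjusted p of 0.05, where 3.89% of all 16026 genes did. At an unadjusted p under 0.05 there were 2 of 6, Grm3 and Grm7, where 20.2% of all genes were (11.0% lower and 9.29% higher under SI). DESeq2 with the same surrogate variables called both Grm3 and Grm7 in females, where it called 7.87% of all genes. In males 0 of 6 passed edgeR's test, where 0% of all 15833 genes did, and Grm3 alone had an unadjusted p under 0.05, where 13.0% of all genes were (7.38% lower and 5.63% higher under SI). DESeq2 called 0 of 6 in males with the same surrogate variables, where it called 0.278% of all genes. The median Log2FC (SI minus GH) of the 6 genes was 0.04 in females and -0.03 in males, beside 0.00773 and -0.00197 over all genes. In neither sex did any of the 6 genes have separate ranges in SI and GH mice, where 0.312% of all genes in females and 0.0568% in males did. Levels below are CPM, counts relative to the TMM-scaled library, which allow a gene to be compared between mice of 1 sex but not with another gene, and a Log2FC is the fitted difference after the surrogate variables.

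**Figure D2:**
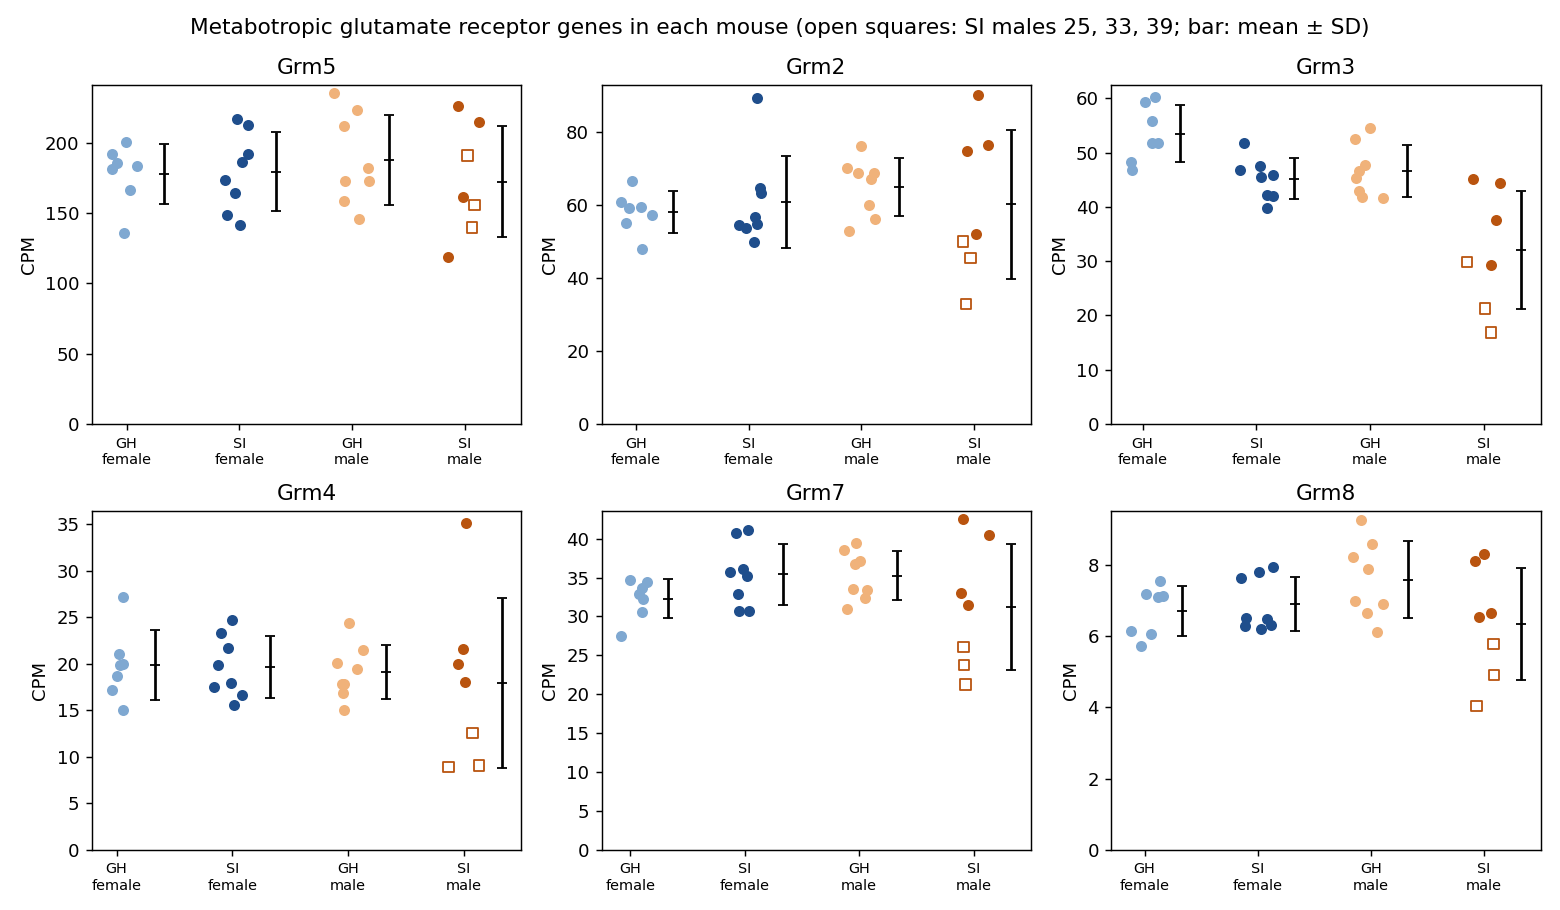
CPM of the 6 receptor genes in every mouse, with the mean and SD of each group beside its points, on axes that start at 0. The groups overlap for each gene, and the open squares, SI males 25, 33 and 39, are the lowest 3 SI males for Grm2, Grm4, Grm7 and Grm8.

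Grm5 encodes mGluR5, the group I receptor of this set. In females it ranged from 141 to 217 CPM under SI, with a median of 180, and the GH values from 136 to 201, with a median of 183. The groups covered nearly the same range, with 2 of 8 SI females over the highest GH value. The means were 179 ± 27.8 CPM (SD, n = 8) and 178 ± 21.3 (SD, n = 7), and the Log2FC was 0.03 (SE 0.0454, adjusted p = 0.81). In males Grm5 ranged from 119 to 226 CPM under SI, with a median of 161, and the GH values from 145 to 235, with a median of 177. SI male 38 was the lowest male and GH male 22 the highest, and the groups overlapped. The Log2FC in males was -0.12 (SE 0.14, adjusted p = 0.739), and the sign of the Grm5 value turned in both sexes under some settings. Without SI males 25, 33 and 39 it was -0.09 (unadjusted p = 0.0415, adjusted p = 0.776), and in females it was 0.03 without SI 53 and GH 78.

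Grm2 encodes mGluR2, a presynaptic group II receptor. It ranged from 49.9 to 89.3 CPM in SI females (median 55.9) and from 48.1 to 66.7 in GH females (median 59.2). SI female 45 stood far above the other SI females, whose next highest value was 64.6 CPM. The means were 60.9 ± 12.5 CPM (SD, n = 8) and 58.1 ± 5.7 (SD, n = 7), with a Log2FC of 0.05 (SE 0.0818, adjusted p = 0.796), which was 0.10 without SI 53 and GH 78. In males Grm2 ranged from 32.9 to 90.1 CPM under SI, with a median of 52.1, and the GH values from 53 to 76.3, with a median of 67.9. SI males lay on both sides of the GH range, 4 of 7 below its lowest value and 2 of 7 above its highest. The unadjusted means were lower under SI, 60.3 ± 20.4 (SD, n = 7) against 65.0 ± 7.87 (SD, n = 8), while the Log2FC after the surrogate variables was 0.15 (SE 0.104, adjusted p = 0.541). Without surrogate variables it was -0.11, and without SI males 25, 33 and 39 it was -0.10.

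Grm3 encodes mGluR3, the group II receptor that astrocytes also carry. In females it ranged from 39.9 to 51.8 CPM under SI, with a median of 45.6, and the GH values from 46.8 to 60.3, with a median of 51.8. Of the 8 SI females, 5 lay under the whole GH range, and 5 of 7 GH females were above the highest SI female. The means were 45.2 ± 3.78 CPM (SD, n = 8) and 53.5 ± 5.26 (SD, n = 7). The fitted level under SI was 86.7% of that under GH, a Log2FC of -0.21 (SE 0.0594, unadjusted p = 0.00295), and the adjusted p from edgeR's quasi-likelihood test was 0.0607. By p-value Grm3 ranked 777 of 16026 genes.

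In males Grm3 ranged from 16.9 to 45.2 CPM under SI, with a median of 29.9, and the GH values from 41.7 to 54.5, with a median of 46. Again 5 of 7 SI males were below the lowest GH male and 5 of 8 GH males above the highest SI male. The means were 32.1 ± 10.9 CPM (SD, n = 7) and 46.6 ± 4.8 (SD, n = 8), and the Log2FC was -0.34 (SE 0.118, unadjusted p = 0.00991, adjusted p = 0.316). Of the 3 SI males that stood apart, 25 (16.9 CPM) and 33 (21.3 CPM) were the lowest of all, and 39 had 29.9 CPM. The 4 other SI males had 39.1 ± 7.43 CPM (SD, n = 4), from 29.3 to 45.2, and without the 3 the Log2FC was -0.11 (unadjusted p = 0.157, adjusted p = 0.89).

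The Grm3 value in females lay close to the threshold, and single mice moved it across. It was from -0.27 to -0.16 with each female left out in turn. Its adjusted p was under 0.05 without SI 41 (0.0229, when 5.16% of all genes were called) or SI 52 (0.0374, 6.36%). The same held without GH 46 (0.0315, 5.88%), GH 47 (0.0475, 4.66%) or GH 78 (0.00345, 8.86%), beside 3.89% in the main fit. The adjusted p was highest without SI 68 (0.225), when 0.55% of all genes were called. Without SI 53 and GH 78 together, a setting chosen after seeing the data, the Log2FC was -0.27 (adjusted p = 0.0019). That fit called 9.64% of all genes. DESeq2 gave an adjusted p of 0.016 with the same surrogate variables and 0.0299 without them. Of 14 settings other than the main one, 8 took the adjusted p under 0.05 and 6 did not. In edgeR it was 0.121 without surrogate variables, 0.217 with the position digit of the labels as a factor and 0.0902 in 1 fit of all groups. In males the Log2FC with 1 mouse left out was from -0.52 to -0.24. The adjusted p was under 0.05 only without SI 27 (0.00741), the SI male with the highest Grm3 level. Without SI 27, 15.3% of all genes were called, beside 0% with all males. The sign was negative in each of these fits in both sexes.

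**Figure D3:**
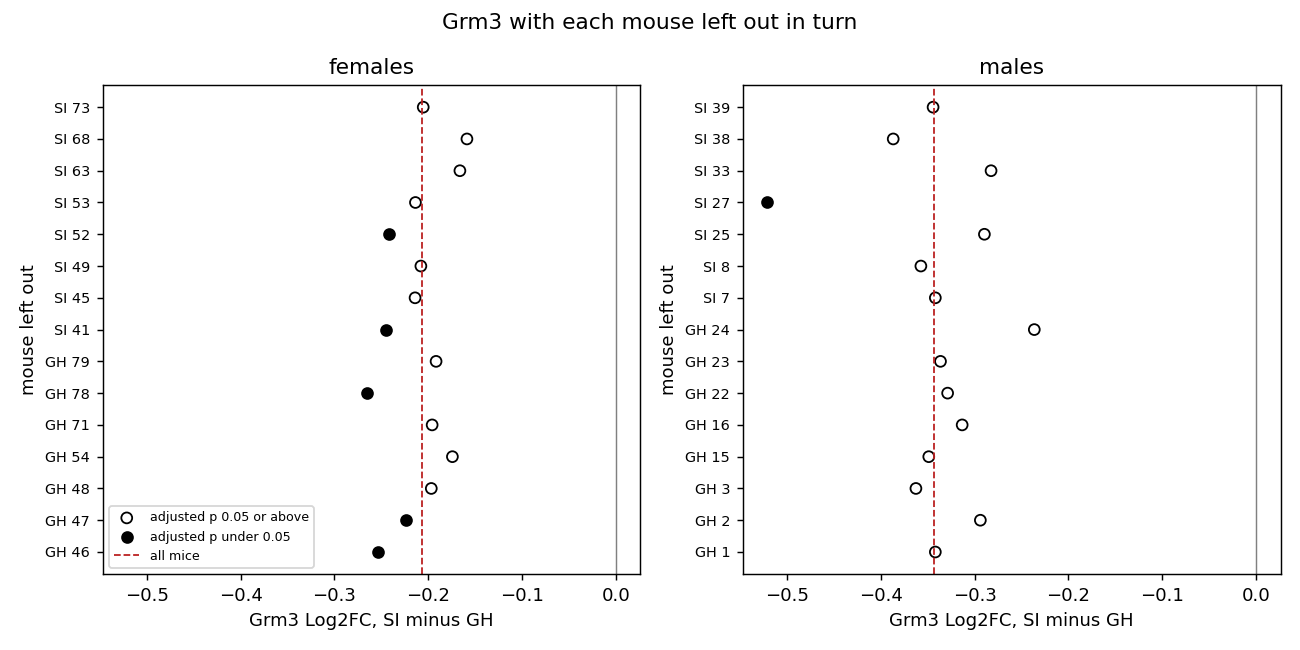
Fitted Log2FC of Grm3 (SI minus GH) with each mouse left out in turn, females on the left and males on the right. Filled points have an adjusted p under 0.05, the dashed line is the value with all mice, and all points lie below 0, with 5 filled in females and 1 in males. The fits with filled points called 4.66% to 8.86% of all genes in females and 15.3% in males.

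Astrocyte markers pointed the same way as Grm3, as did other glial markers in females. All 7 (Aqp4, Gfap, Aldh1l1, Gja1, Aldoc, S100b and Fgfr3) passed the filter on low counts. In females 7 of 7 had a negative Log2FC, where 47.2% of all genes did, and 3 fell, where 2.93% did, Aldh1l1 by 0.27, Aldoc by 0.22 and S100b by 0.26 on the log2 scale (adjusted p = 0.0215, 0.0163 and 0.0122). The number called lower was 5 without SI 53 and GH 78, when 9.64% of all genes were called in either direction. Without surrogate variables or with the position digit of the labels as a factor it was 0, beside 0% of all genes. It was from 0 to 5 with 1 female left out. It was 0 without SI 45 (0.926% of all genes called) and 2 without GH 48 (1.7%). Without any 1 of SI 63, SI 68, SI 73 and GH 54 it was 1 (0.55% to 1.82%). Without any 1 of SI 52, GH 78 and GH 79 it was 5 (4.34% to 8.86%). A negative Log2FC in females was also found for 6 of 6 oligodendrocyte markers (2 at an unadjusted p under 0.05), 3 of 3 oligodendrocyte precursor markers (1) and 7 of 7 microglia markers (1), with 0 called in each list. The summed level of the astrocyte markers was from 1970 to 2960 CPM in SI females and from 2540 to 3300 in GH females. In males 6 of 7 astrocyte markers had a negative Log2FC, where 50.7% of all genes did, and 0 passed the test, beside 0% of all genes. Of the 7, 1 (Fgfr3) was lower at an unadjusted p under 0.05, where 7.38% of all genes were. Without SI 27, 3 were called lower, when 15.3% of all genes were called. The sums in males were 1790 to 2660 CPM under SI and 2000 to 2790 under GH. SI males 25, 33 and 39 had sums of 2340, 2510 and 2510 CPM, inside the GH range, while their Grm3 levels were below it. In bulk tissue fewer cells of a type and less RNA per cell cannot be told apart, and the part of astrocyte or other glial content in the Grm3 values was not tested.

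**Figure D4:**
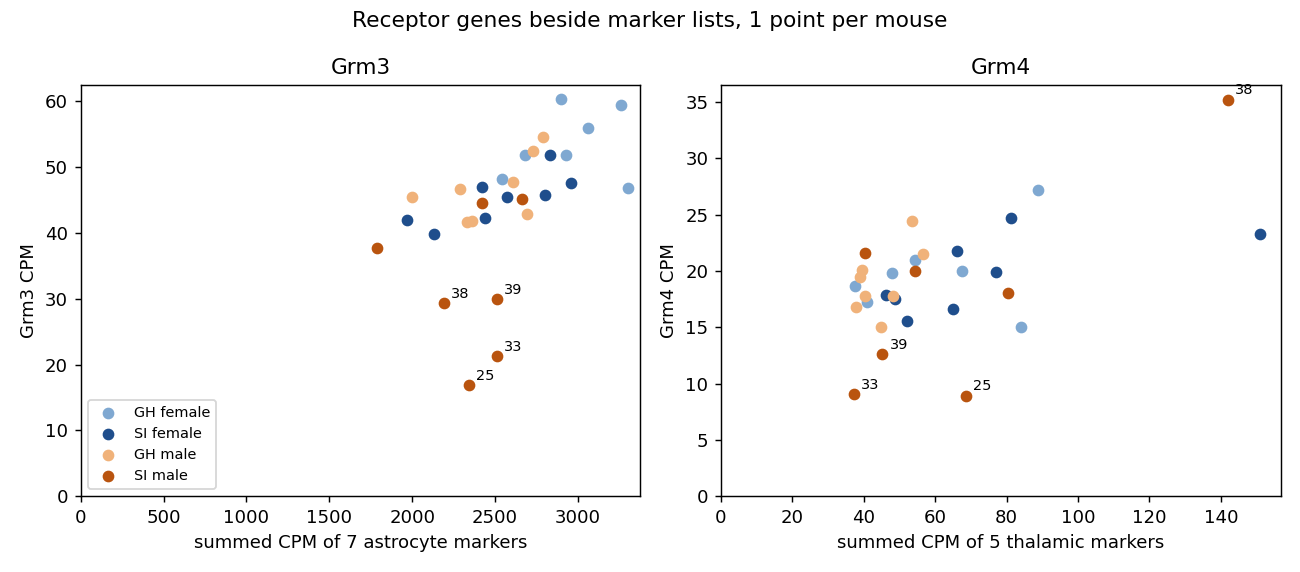
Grm3 CPM against the summed CPM of 7 astrocyte markers (left) and Grm4 CPM against the summed CPM of 5 thalamic markers (right), 1 point per mouse. SI males 25 and 33 have the lowest Grm3 at a mid-range astrocyte sum, and SI male 38 has the highest Grm4 and a thalamic sum of 142.

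The balance of the group II genes was described by the log2 ratio of Grm3 to Grm2 levels in TPM within each mouse, which does not depend on library size. Its median was -0.43 in SI females and -0.18 in GH females, and -1.05 in SI males and -0.63 in GH males. It ranged from -1.18 to -0.18 in SI females and from -0.56 to 0.13 in GH females. In males it ranged from -1.71 to -0.29 under SI and from -0.84 to -0.19 under GH. The ranges overlapped in both sexes, and the lowest ratios belonged to SI female 45 and SI male 38, the mice with the highest Grm2 of their groups. No test was run on the ratio.

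Grm4 encodes mGluR4, a group III receptor. In females it ranged from 15.6 to 24.7 CPM under SI, with a median of 18.9, and the GH values from 15 to 27.2, with a median of 19.8. All 8 SI females lay within the GH range, and the Log2FC was -0.01 (SE 0.0882, adjusted p = 0.957), which was 0.0028 without SI 53 and GH 78. In males it ranged from 8.92 to 35.2 CPM under SI, with a median of 18, and the GH values from 15 to 24.4, with a median of 18.7. SI male 38 alone was above the GH range, and SI males 25, 33 and 39 were below it. The Log2FC in males was 0.22 (SE 0.15, adjusted p = 0.526), and without SI male 38 it was -0.20 (adjusted p = 0.205). The sign also turned with SI male 38 kept, to -0.04 without SI 25, 33 and 39, -0.09 without surrogate variables and -0.17 with the position digit of the labels as a factor. The male Grm2 value was -0.11 without SI male 38.

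Markers of the thalamus, a region next to the hippocampus, were highest among males in SI male 38. All 5 (Tcf7l2, Prkcd, Lef1, Synpo2 and Rgs16) passed the filter on low counts. Their sum was 142 CPM in SI male 38, with 37.2 to 142 in SI males and 37.7 to 56.7 in GH males. In males 5 of 5 had a positive Log2FC with an unadjusted p under 0.05, where 5.63% of all genes were higher at that p, and 0 passed the adjusted test. The largest value was that of Tcf7l2, at 1.05. Without SI male 38 it was 0 of 5 at an unadjusted p under 0.05. It was 2 of 5 without GH 3 or without surrogate variables, and 1 of 5 with the position digit as a factor. Without SI 27, 2 were called higher, when 15.3% of all genes were called. In females the sums were 46.3 to 151 CPM under SI and 37.6 to 88.8 under GH. There 1 of 5 had an unadjusted p under 0.05, where 20.2% of all genes did. SI female 41 had the highest sum (151 CPM) but Grm2 (55.0 CPM) and Grm4 (23.3 CPM) within the GH ranges. The part of thalamic tissue in the values of SI male 38 was not tested.

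Grm7 encodes mGluR7, the group III receptor of the active zone. In females it ranged from 30.7 to 41.1 CPM under SI, with a median of 35.5, and the GH values from 27.5 to 34.7, with a median of 32.9. Of the 8 SI females, 5 lay over the whole GH range, and 2 of 7 GH females were below the lowest SI female. The means were 35.4 ± 3.98 CPM (SD, n = 8) and 32.3 ± 2.54 (SD, n = 7), and the Log2FC was 0.13 (SE 0.0387, unadjusted p = 0.00346, adjusted p = 0.065). The adjusted p was 0.0417 without SI 41, 0.0477 without GH 78 and 0.0343 without SI 53 and GH 78 together, and it was 0.0258 by DESeq2 with the same surrogate variables. Of all genes these fits called 5.16%, 8.86%, 9.64% and 7.87%, beside 3.89% in the main fit. Without surrogate variables the value was much the same, 0.13, but its unadjusted p in edgeR was 0.0797.

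In males Grm7 ranged from 21.3 to 42.5 CPM under SI, with a median of 31.5, and the GH values from 31.0 to 39.5, with a median of 35.1. SI males 25, 33 and 39 were below the GH range, 2 of 7 SI males were above it, and the other 2 were within it. The Log2FC was -0.0010 (SE 0.0579, adjusted p = 0.997), and its sign turned under several settings, among them without SI 25, 33 and 39, when it was 0.0051. Beside Grm7 in females, the 5 neuron markers (Rbfox3, Snap25, Syt1, Eno2 and Slc17a7, the last also in a list of transporters below) all had a positive Log2FC, with 2 at an unadjusted p under 0.05 and 0 past the adjusted test. Their sum was 4400 to 5550 CPM in SI females and 4240 to 4920 in GH females. Positive in females were also 4 of 4 dentate granule markers (2 at an unadjusted p under 0.05), 6 of 7 interneuron markers (2) and 5 of 5 endothelial markers (2). So were 3 of 4 CA3 markers (2) and 6 of 6 choroid plexus markers (0). In each of the interneuron, endothelial and CA3 lists 1 was called higher, where 0.961% of all genes were. The CA1 markers were split, with 2 positive and 2 negative. Their smallest p was that of Mpped1, which was lower (Log2FC -0.17, unadjusted p = 0.00753, adjusted p = 0.0962). The glial lists given above were negative in females. The part of these cell types in the Grm7 value was not tested.

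Grm8 encodes mGluR8, the least abundant receptor of the set per transcript length. In females it ranged from 6.22 to 7.96 CPM under SI, with a median of 6.5, and the GH values from 5.73 to 7.55, with a median of 7.09. The groups overlapped, and the Log2FC was 0.05 (SE 0.0834, adjusted p = 0.813), which was 0.08 without SI 53 and GH 78. In males it ranged from 4.04 to 8.32 CPM under SI, with a median of 6.53, and the GH values from 6.12 to 9.27, with a median of 7.45. SI males 25, 33 and 39 were the 3 below the GH range, and the 4 other SI males had 7.4 ± 0.948 CPM (SD, n = 4) against 7.58 ± 1.08 (SD, n = 8) in GH males. The Log2FC in males was -0.06 (SE 0.112, adjusted p = 0.84). It was -0.18 without SI 25, 33 and 39 (adjusted p = 0.89), -0.23 without SI 38 (adjusted p = 0.211), -0.25 without surrogate variables (adjusted p = 0.226) and -0.31 with the position digit as a factor (adjusted p = 0.407).

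**Figure D5:**
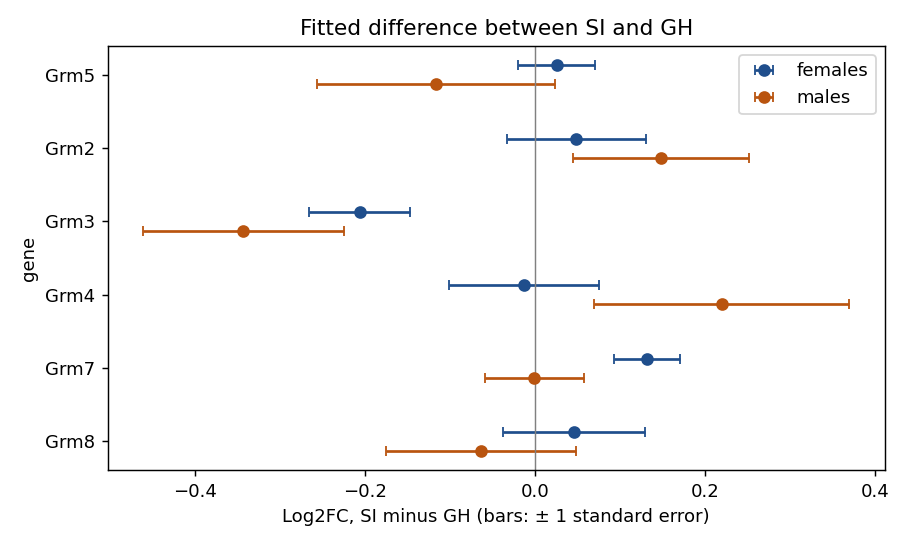
Fitted Log2FC of SI minus GH for each receptor gene with 1 standard error on either side, females and males apart. Grm3 is the one gene with values more than 1 standard error below 0 in both sexes, at -0.21 in females and -0.34 in males.

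Whether the difference between SI and GH itself differed between the sexes was tested by a sex by housing interaction term, fitted on all 30 mice together. In edgeR 0 of 6 genes passed, where 0% of all 16391 genes did, and 0 of 6 had an unadjusted p under 0.05, where 7.48% of all genes did. DESeq2 also called 0 of 6, and 0.0427% of all genes. The interaction, male minus female, was -0.11 for Grm3 (SE 0.113, adjusted p = 0.852) and -0.07 for Grm7 (SE 0.0603, adjusted p = 0.816). The estimate for Grm4 was 0.11 (SE 0.116), that for Grm8 -0.15 (SE 0.136), that for Grm2 0.04 (SE 0.123) and that for Grm5 0.02 (SE 0.0987). Adjusted p-values were from 0.816 to 0.977. No receptor gene was shown to respond to SI differently in females and males.

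The receptors act through scaffold proteins, G proteins, enzymes and transporters, for which 62 genes in 6 lists were followed in the same fits. The lists were chosen with earlier results of these data known, and their counts are a description. In females 13 of the 62 fell, where 2.93% of all genes did, and 1 rose, where 0.961% did, which makes 22.6% beside 3.89%. With 1 female left out the number called was from 1 (without SI 68, when 0.55% of all genes were called) to 19 lower and 2 higher (without GH 78, when 8.86% were). It was 2 without SI 45 (when 0.926% of all genes were called), 3 without SI 63 (1.06%) and 8 without GH 71 (2.77%). Without any 1 of SI 49, SI 73, GH 48 and GH 54 it was 5 (1.4% to 1.82%). In males 0 of 62 passed edgeR's test, beside 0% of all genes. Of the 62, 23 had an unadjusted p under 0.05, where 13.0% of all genes did. But without SI 27, 17 were called lower and 2 higher, when 15.3% of all genes were called. Without SI 38, 2 were called lower, when 0.802% of all genes were called. Without SI 53 and GH 78, 18 of the 62 were called lower and 2 higher in females, where 9.64% of all genes were called. Without surrogate variables 0 of 62 were called in females, where 0% of all genes were, and 20 had an unadjusted p under 0.05. Without SI males 25, 33 and 39, 10 of 62 rather than 23 had an unadjusted p under 0.05 in males. For neither of these fits was the share of all genes at that p counted. DESeq2 with the same surrogate variables called 1 of 62 in males, where it called 0.278% of all genes.

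Among the scaffold and binding partners, 3 of 14 fell in females and 0 rose. These were Homer2, which tethers group I receptors (Log2FC -0.25, adjusted p = 0.022), and Shank1 and Shank3, scaffolds of the postsynaptic density (-0.26 and -0.27, adjusted p = 0.0409 and 0.0379). Homer1 had a Log2FC of 0.17 in females (adjusted p = 0.0808) and of -0.23 in males (unadjusted p = 0.0124, adjusted p = 0.325). In males the smallest p of this list was that of Shank2 (-0.33, unadjusted p = 0.00266, adjusted p = 0.295). On the Gq arm, which group I receptors use, 2 of 12 fell in females, the phospholipase C gene Plcb3 (-0.21, adjusted p = 0.0296) and the IP3 receptor gene Itpr1 (-0.19, adjusted p = 0.0265). Itpr1 also had the smallest p of this list in males (-0.45, unadjusted p = 0.000419, adjusted p = 0.295).

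On the Gi/o arm, which group II and III receptors use, 2 of 12 fell in females. These were the G protein subunit gene Gnai2 (-0.17, adjusted p = 0.0127) and the adenylyl cyclase gene Adcy5 (-0.27, adjusted p = 0.0287). In males Adcy1, another adenylyl cyclase, had the smallest p of this list (-0.46, unadjusted p = 0.00233, adjusted p = 0.295). Of the 7 desensitization and RGS genes, the receptor kinase gene Grk3 (-0.26, adjusted p = 0.00875) and the arrestin gene Arrb1 (-0.24, adjusted p = 0.00971) fell in females. The other arrestin gene, Arrb2, rose (0.16, adjusted p = 0.0413), so the arrestins moved in opposite directions. Grk3 had the smallest p of this list in males too (-0.31, unadjusted p = 0.0031, adjusted p = 0.295).

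Of the 9 glutamate transport and metabolism genes, 3 fell in females and all 3 are known for high levels in astrocytes. They were the glutamate transporter genes Slc1a2 (-0.28, adjusted p = 0.0108) and Slc1a3 (-0.24, adjusted p = 0.014) and the glutamine synthetase gene Glul (-0.18, adjusted p = 0.0467). The neuronal vesicular transporter gene Slc17a7 had a Log2FC of 0.00012 in females (adjusted p = 0.999) and of -0.0013 in males (adjusted p = 0.997). In males Slc1a2 had the smallest p of this list (-0.36, unadjusted p = 0.012, adjusted p = 0.323). Of the 8 genes of mGluR-dependent plasticity, 1 fell in females, the kinase gene Mapk3 (-0.14, adjusted p = 0.0448). Fmr1, whose product restrains translation downstream of mGluR5, had a Log2FC of 0.03 in females (adjusted p = 0.746) and of -0.13 in males (adjusted p = 0.4). Arc had the smallest p of this list in males (-0.75, SE 0.249, unadjusted p = 0.00769, adjusted p = 0.312).

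For each receptor gene, the genes whose levels followed it most closely were sought among 15770 genes tested in both sexes, by Pearson's r of log2 CPM over the 30 mice after housing and the surrogate variables were removed within each sex. All points share their libraries, and no p is given. Grm5 was followed by Abi2 (r = 0.922, Spearman's rho = 0.876) and by C77370 (r = 0.911). With housing alone removed r was 0.894 and 0.945. Grm3 was followed by Adk, the adenosine kinase gene (r = 0.916, rho = 0.891), Snx5, a sorting nexin gene (r = 0.905), and Asrgl1, an asparaginase-like gene (r = 0.898). With housing alone removed, r was -0.08 for Adk, 0.04 for Snx5 and 0.589 for Asrgl1, so the likeness of the first pair appeared only after the surrogate variables. Asrgl1 fell in females (Log2FC -0.30, adjusted p = 0.00703), and in males its Log2FC was -0.24 (adjusted p = 0.39).

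Grm7 was followed by Sv2b, a synaptic vesicle protein gene (r = 0.84, rho = 0.818), Krr1 (r = 0.835) and Cpsf2 (r = 0.812), and with housing alone removed r was 0.952, -0.60 and 0.476. Grm2 was followed by Zfp64 (r = 0.857, rho = 0.826), Gm13889 (r = 0.802) and C1qtnf4 (r = 0.789), with 0.757, 0.175 and -0.26 after housing alone. Grm4 was followed by Kcnj12, an inward rectifier potassium channel gene (r = 0.854, rho = 0.712), Gpr4 (r = 0.826) and Arhgap24 (r = 0.81), with 0.903, 0.471 and 0.845 after housing alone. Grm8 was followed by Rabgef1 (r = 0.74, rho = 0.765) and Chst14 (r = 0.729), with 0.846 and 0.574 after housing alone. Rabgef1 rose in females (Log2FC 0.14, adjusted p = 0.0407). Among the receptor genes themselves, Grm5 and Grm7 had the highest r after housing and the surrogate variables (0.786), and Grm4 and Grm5 the lowest (-0.61). After housing alone these were 0.662 and -0.04, and the highest r was that of Grm2 and Grm4 (0.804), so the order depended on the surrogate variables. Grm2 and Grm3, the group II pair, had r = -0.35, and 0.399 after housing alone.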

How the data were processed

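Estimated counts per gene, made by the authors with Salmon from reads trimmed with Trimmomatic, were deposited as whole numbers and carry no normalization. The submitters' processing notes name Trimmomatic 0.39, Salmon 1.8.0, DESeq2 1.24.0 and the build GRCm39. The annotation used with Salmon is not given in the sources used here. All 30 columns were matched to mice by name, and 0 columns had no sample. Symbols were found for 16439 of 17477 genes, and 15964 had a transcript length in GENCODE vM1 (NCBIM37).

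Analysis used edgeR 4.0.16 in R 4.3.3. Females and males were fitted apart. The filter was filterByExpr (count of at least 10, total of at least 15), libraries were scaled by TMM, and svaseq (sva 3.50.0) surrogate variables, their number set with 20 permutations and seed 1, were covariates. Genes were tested with glmQLFit and glmQLFTest and adjusted by the Benjamini-Hochberg method over all genes tested, with a threshold of 0.05. The interaction was fitted on all 30 mice with 4 surrogate variables. SE is the Log2FC divided by the square root of F, in size. Log2 CPM used a prior count of 2, and TPM divided counts by the longest coding transcript. Library totals were 18809307 to 100844898 counts. Precision rests on the counts of each gene as well as on the spread between mice, and Grm8 had 91 to 800 counts. The steps were tested on simulated data without surrogate variables, so the surrogate variable step was not tested in this way.

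The 6 receptor genes, the lists and the tests were chosen with earlier results of these data known. Named are the 6 genes, from each pathway list the genes past the threshold and the smallest p in each sex, and the 3 genes most like each receptor gene, of which 2 are not reported here. Homer1, Slc17a7, Fmr1 and marker genes were named outside this rule. Alternatives were DESeq2 1.42.0, limma 3.58.1 (voom with quality weights), other numbers of surrogate variables, the position digit in the labels as a factor, other scaling and filters, 1 fit of all groups, removal of length and GC trends by lowess (span 0.3) and leaving out mice.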

Additional observations from a re-analysis of the deposited data

Results flagged for a closer look

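Of 24 groups of mice tested for a stray extreme value, that is 6 genes in 4 groups, 1 was past Dixon's 95% limit, and chance alone flags about 1 in 20 groups. Grm2 in SI female 45 was 89.3 CPM, and the nearest other SI female had 64.6 CPM. On the log2 CPM scale, on which the limit was applied, the gap was 0.555 of the group's range, where the limit is 0.526. The same mouse had the lowest astrocyte marker sum of the SI females (1970 CPM) and the largest library (100844898 counts). Without it the Log2FC of Grm2 in females was -0.01 (adjusted p = 0.945 from edgeR's quasi-likelihood test), against 0.05 with it.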

How the results depend on the processing

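In females the number of receptor genes called was 0 in the main test and in 6 of 14 other settings. It was 1, namely Grm3, with 1 or 2 surrogate variables (when 3.3% and 3.43% of all genes were called), with DESeq2 lacking surrogate variables (2.5%) and with quality weights in limma-voom (5.23%). It was 2, Grm3 and Grm7, with 4 surrogate variables (6.76%), DESeq2 with the same surrogate variables (7.87%), the length and GC trend removed (7.69%), or without SI 53 and GH 78 (9.64%, added after seeing the data). All genes were thus called more often in these 4 fits than in the main one (3.89%). Leaving out 1 female gave 0 to 2. In males it was 0 in all 14 settings, although DESeq2 without surrogate variables gave an adjusted p for Grm5 alone, and 0 to 1 with 1 male left out, and for the interaction it was 0 in all 5.

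Grm3 kept its sign in all 14 settings in each sex (-0.27 to -0.18 in females, with adjusted p from 0.0019 to 0.217, and -0.54 to -0.11 in males, with adjusted p from 0.0863 to 0.89). Its interaction turned, to 0.0146, without SI males 25, 33 and 39. Grm7 in females stayed between 0.11 and 0.14, and Grm8 kept its sign in both sexes but ranged from -0.31 to -0.0173 in males.

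Signs turned for Grm2, Grm4, Grm5 and Grm7 in some settings, including male Grm2 (0.15) and Grm4 (0.22), which were not near 0. In females Grm5 was -0.0109 with 1 surrogate variable and -0.00724 with limma-voom. Grm4 was 0.037 with 2 surrogate variables, 0.0038 with limma-voom, 0.043 with the position digit, 0.0336 with no filter, 0.0207 with trends removed and 0.0028 without SI 53 and GH 78. In males Grm2 and Grm4 were -0.11 and -0.0917 without surrogate variables, -0.10 and -0.0843 with DESeq2 without them, -0.14 and -0.17 with the position digit, and -0.10 and -0.0383 without SI 25, 33 and 39. Grm7 was 0.0053 with DESeq2, 0.0044 with its size factors, 0.00083 with at least 10 counts in every sample, 0.065 in 1 fit of all groups, 0.0541 with trends removed and 0.0051 without SI 25, 33 and 39. Grm5 was 0.0504 in 1 fit of all groups and 0.000795 with trends removed. The interaction was -0.18 (Grm2), -0.0777 (Grm4) and -0.14 (Grm5) without surrogate variables, and -0.029 (Grm2) and -0.10 (Grm5) without SI males 25, 33 and 39. With 1 mouse left out, Grm2 was -0.0134 to 0.10, Grm4 -0.13 to 0.12 and Grm5 -0.0085 to 0.0401 in females, and Grm2 was -0.11 to 0.21, Grm4 -0.20 to 0.30, Grm5 -0.23 to 0.0344 and Grm7 -0.0836 to 0.0548 in males. The cause was not tested.

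Over all genes the number called moved from 0 to 1549 in females, 0 to 304 in males and 0 to 7 for the interaction across settings, and with 1 mouse left out from 88 to 1427 in females and 0 to 2414 in males. These fits estimated the surrogate variables again. Bulk counts do not separate cell types or isoforms, and the lowest gene, Grm8, had 91 counts in its shallowest library. No paired analysis was possible because the SI and GH groups share no replicate numbers.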
